A study of Mus musculus with 6 samples.

Results

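The subunits of the kainate receptor, a glutamate-gated ion channel, are encoded by Grik1 to Grik5, and their mRNA was compared here between the hippocampus of p300+/- mice and that of wild-type littermates. All probe sets annotated to a single one of these 5 genes were taken, which gave 8 of the 45037 probe sets tested, for 5 of the 18193 genes with a probe set of their own. The p300+/- mice were heterozygous for a deficiency of Ep300, the gene of the acetyltransferase and coactivator p300. All mice were C57BL/6 females aged 3 months, and no treatment is named in the labels. Each Affymetrix Mouse Genome 430 2.0 array held a pool of hippocampal RNA from 4 animals, with 3 arrays of each genotype, so that the spread between arrays is that between pools and not between animals. The labels do not say how the allele was made, and none of them names a promoter, a Cre line or a cell type.

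Kainate receptors are tetramers. The core subunits GluK1, GluK2 and GluK3 (genes Grik1, Grik2 and Grik3) can form channels by themselves, while the high-affinity subunits GluK4 and GluK5 (Grik4 and Grik5) form working channels only in combination with a core subunit. In the hippocampus these receptors are best known at the synapses of dentate mossy fibres on CA3 pyramidal cells, where they act on both sides of the synapse, and on GABAergic interneurons, many of which express Grik1.

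Each value below is taken to be on the log2 scale, though the labels state no base. It is relative to the median of that probe set over the 6 arrays, so that 0 is the middle of the arrays. No absolute level is held. A log2 fold change is the mean of the p300+/- arrays minus that of the wild-type arrays. The fit was limma over all probe sets, with p-values adjusted over all of them and a threshold of 0.05. A coarse level class, read from the rounding of the deposited numbers, placed 3 of the kainate probe sets in the class from 8 to 16 (1 each of Grik2, Grik3 and Grik5) and 5 in that from 4 to 8. None was in the lowest class, from 2 to 4. Of the 8 probe sets, 4 were designed on an mRNA record (Grik5 and 1 each of Grik1, Grik2 and Grik3) and 4 on an expressed sequence tag.

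Ep300 itself checks the labels: its only probe set was at -0.26, -0.22 and -0.50 in the p300+/- arrays and at 0.22, 0.38 and 0.40 in the wild-type arrays, a log2 fold change of -0.66 ± 0.13 (SE) that did not pass (limma, adjusted p = 0.9999). Where its probes lie relative to the mutation is not known, so the check is a limited one. The array p300+/- 3 and the array wild-type 2 had the widest spread over all probe sets (SD 0.290 and 0.331, against 0.182 to 0.207 in the others). Of the hippocampal markers listed for the check of the tissue, all 8 neuronal genes had a reference probe set in the class from 8 to 16, as had 8 of 12 dentate granule cell and 6 of 9 CA3 genes. That class also held 6 of 12 thalamus and 4 of 11 choroid plexus genes, so it does not by itself set the tissue apart. The mean of the 8 neuronal markers was -0.40 in p300+/- 3 and -0.62 in wild-type 2, and between 0.0098 and 0.18 in the other arrays. That of 11 choroid plexus markers was -2.44 in wild-type 2 and between -0.16 and 0.33 elsewhere. Fold changes of the kainate probe sets that rest on these arrays are given with and without them, as are those of named partner genes that took the opposite sign without one of them. In pooled tissue RNA, fewer cells of a type and less RNA per cell cannot be told apart.

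No kainate receptor probe set passed the test between genotypes. Log2 fold changes were below 0 in 5 probe sets and above 0 in 3, with a median of -0.065, beside 0.0057 over all probe sets. After quantile normalization they were below 0 in 6 and above 0 in 2, as Grik5 took the opposite sign. The smallest unadjusted p belonged to a Grik1 probe set that was lower in p300+/- pools (0.757 times the wild-type level) and the next to a Grik2 probe set in the opposite direction (1.21 times). In these 2 of 8 probe sets the genotypes did not overlap, which was so in 5.39% of all probe sets (2.20% with p300+/- below, as in Grik1, and 3.19% with p300+/- above, as in Grik2). The other probe set of Grik1 gave a value nearer 0, and that of Grik2 had the opposite sign. The smallest adjusted p of the kainate probe sets was 0.9999 (limma), and 0 of 45037 probe sets passed (0%). At an unadjusted p under 0.05 there was 1 kainate probe set, that of Grik1, beside 550 or 1.22% of all probe sets (limma).

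**Figure D1:**
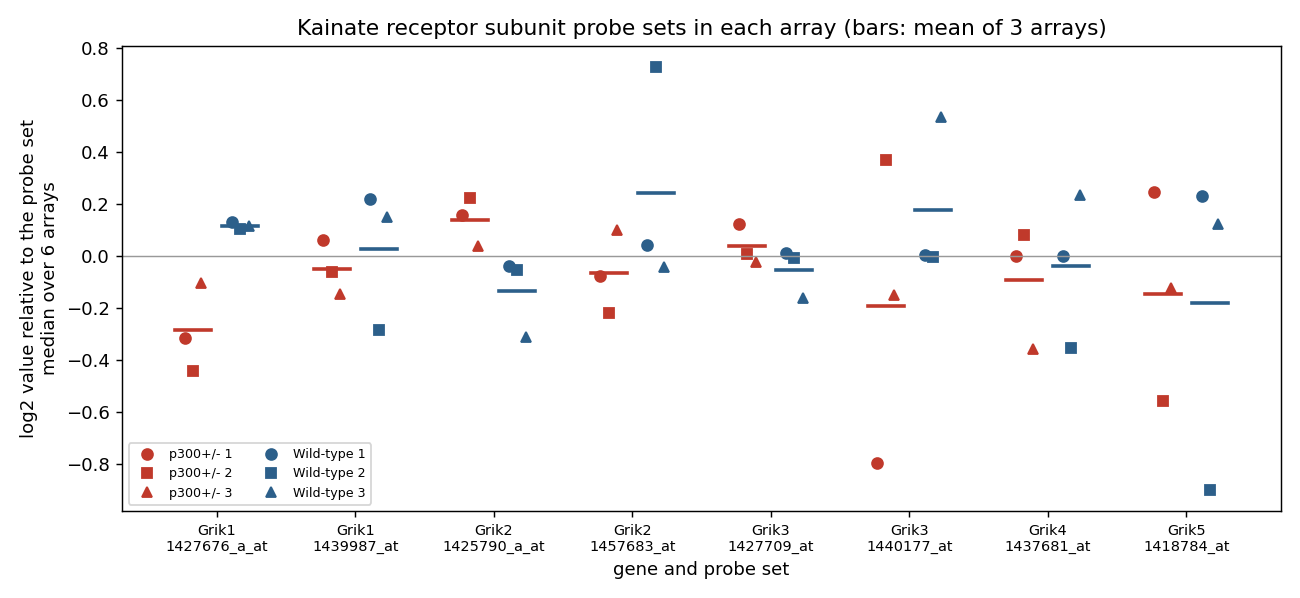
The log2 value of each kainate receptor probe set, relative to its median over 6 arrays, is plotted for the 3 p300+/- arrays (red) and the 3 wild-type arrays (blue), with a bar at each mean. Grik1 1427676_a_at (p300+/- below wild-type) and Grik2 1425790_a_at (p300+/- above wild-type) are the 2 probe sets in which the genotypes do not overlap, and single arrays lie far out in Grik2 1457683_at, Grik3 1440177_at and Grik5.

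Among the core subunits, Grik1 had the clearest separation. The probe set 1427676_a_at, whose suffix marks one that can read several transcripts of the same gene, was at -0.32, -0.44 and -0.10 in p300+/- 1, 2 and 3. It was at 0.13, 0.10 and 0.12 in wild-type 1, 2 and 3. All p300+/- pools thus lay below all wild-type pools, and the wild-type pools lay close together, with a range of 0.028 against 0.34 in p300+/-. The means were -0.29 ± 0.17 and 0.12 ± 0.014 (SD, n = 3 each). The log2 fold change of -0.40 ± 0.12 (SE), with a 95% interval of -0.69 to -0.11, did not pass (limma, adjusted p = 0.9999). Its unadjusted p had rank 68 among the 45037 probe sets (limma). With single arrays left out the value stayed between -0.49 and -0.33, and it was -0.50 without p300+/- 3 and wild-type 2 together.

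The second Grik1 probe set, 1439987_at, was in the same level class, from 4 to 8. It was at 0.060, -0.060 and -0.15 in the p300+/- arrays and at 0.22, -0.29 and 0.15 in the wild-type arrays. The genotypes overlapped, since wild-type 2 was the lowest of the 6 arrays and wild-type 1 and 3 were the highest. Its log2 fold change of -0.077 ± 0.16 (SE) had a 95% interval of -0.45 to 0.30, which overlaps that of the first probe set. Without wild-type 2 it was -0.23, and without wild-type 1 it was 0.020. The mean over both probe sets gave Grik1 a log2 fold change of -0.24 ± 0.11 (SE), with a 95% interval of -0.50 to 0.022 (limma on gene means, adjusted p = 0.9998). In that mean all p300+/- pools (-0.13, -0.25 and -0.12) lay below all wild-type pools (0.18, -0.092 and 0.13), by 0.033 at the nearest pair. Gene means did not overlap between the genotypes in 4.72% of all genes, with p300+/- below in 1.74%, and Grik1 was the only kainate gene among them.

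Because Grik1 is expressed by many interneurons, markers of these cells are given beside it. Of 16 measured interneuron genes, such as those of the GABA-synthesizing enzymes Gad1 and Gad2, 12 had log2 fold changes above 0, with a median of 0.090 and none past the test. Their mean was -0.040, 0.089 and 0.14 in the p300+/- arrays and -0.030, 0.041 and -0.032 in the wild-type arrays. Over all genes 57.6% were above 0. By the mean of the list p300+/- 1 was the lowest and p300+/- 3 the highest array, so the genotypes overlapped. The Grik1 probe sets had log2 fold changes of -0.40 and -0.077. What part interneurons have in the Grik1 values was not tested.

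Grik2, which encodes a core subunit of the receptors on CA3 pyramidal cells, was read by a pair of probe sets that differed in sign. The first, 1425790_a_at, also has the suffix of a probe set that can read several transcripts of the same gene. It was at 0.16, 0.22 and 0.037 in the p300+/- arrays. It was at -0.037, -0.055 and -0.31 in the wild-type arrays, so that all p300+/- pools lay above all wild-type pools, the nearest by 0.075. Wild-type 3 was the lowest. This gave a log2 fold change of 0.27 ± 0.13 (SE) with a 95% interval of -0.022 to 0.57 (limma, adjusted p = 0.9999). It ran from 0.19 without wild-type 3 to 0.32 without p300+/- 3, and was 0.36 without p300+/- 3 and wild-type 2 together.

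The other Grik2 probe set, 1457683_at, was in the higher level class, from 8 to 16. Its values were -0.077, -0.22 and 0.10 in the p300+/- arrays and 0.043, 0.73 and -0.043 in the wild-type arrays. Wild-type 2 alone was high, and the remaining 5 arrays lay between -0.22 and 0.10. The resulting log2 fold change was -0.31 ± 0.22 (SE), with a 95% interval of -0.81 to 0.20 that overlaps that of the first probe set. Without wild-type 2 it was -0.064. The difference between the fold changes of both probe sets was 0.58, the largest of any kainate gene with a pair of probe sets. The gene mean of Grik2 was -0.016 ± 0.14 (SE), with a 95% interval of -0.34 to 0.31, and was 0.12 without wild-type 2.

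Grik3, which encodes a subunit of low glutamate sensitivity, was read by one quiet and one variable probe set. The quiet one, 1427709_at, was at 0.13, 0.0082 and -0.022 in the p300+/- arrays and at 0.010, -0.0082 and -0.16 in the wild-type arrays. Its pooled SD within genotypes of 0.086 was lower than that of 90.8% of all probe sets. Its log2 fold change was 0.090 ± 0.11 (SE), with a 95% interval of -0.18 to 0.36. This is the narrowest interval of the kainate probe sets, and it reaches from 0.886 to 1.28 times the wild-type level.

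The variable Grik3 probe set, 1440177_at, was in the class from 8 to 16. It was at -0.79, 0.37 and -0.15 in p300+/- and at 0.0022, -0.0022 and 0.54 in wild-type arrays. p300+/- 1 was the lowest and wild-type 3 the highest array, and p300+/- 2 was above wild-type 1 and 2. The log2 fold change of -0.37 ± 0.30 (SE), with a 95% interval of -1.06 to 0.32, was -0.069 without p300+/- 1 and -0.65 without p300+/- 2. It was -0.19 without wild-type 3. The gene mean of Grik3 was -0.14 ± 0.15 (SE), with a 95% interval of -0.48 to 0.20, and was -0.011 without p300+/- 1.

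**Figure D2:**
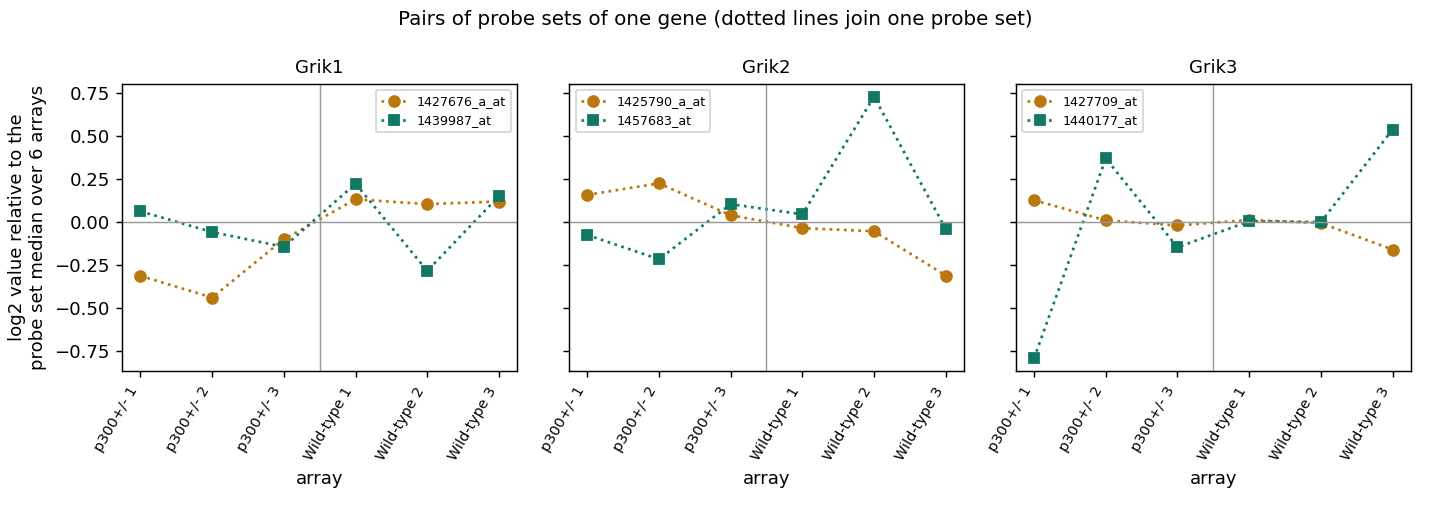
The log2 value relative to the probe set median is plotted by array for the pairs of probe sets of Grik1, Grik2 and Grik3, with p300+/- arrays left of the vertical line and dotted lines that only join the points of one probe set. The pair of Grik1 parts most in p300+/- 1 and 2 and in wild-type 2, that of Grik2 in wild-type 2 (0.73 against -0.055), and that of Grik3 in p300+/- 1 (-0.79 against 0.13) and wild-type 3.

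Agreement between probe sets of one gene was limited. Of the 3 genes with a pair, only Grik1 had both fold changes on the same side of 0. Among all 4695 genes with 2 probe sets the signs were the same in 51.8%. The root mean square difference between the probe sets over the 6 arrays was 0.27 for Grik1, 0.40 for Grik2 and 0.50 for Grik3, beside a median of 0.213 for all such genes. Values of a pair had the same sign in 4 of 6 arrays for Grik1, 2 of 6 for Grik2 and 4 of 6 for Grik3. In all 3 pairs the 95% intervals of the fold changes overlapped. Probe sets of one gene share the RNA and are not replicates, and no test of their difference was made.

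The high-affinity subunits had fold changes near 0 with wide intervals. Grik4, known for its strong expression in CA3 and the dentate gyrus, was at -0.00092, 0.082 and -0.36 in p300+/- 1, 2 and 3. Its only probe set was at 0.00092, -0.35 and 0.23 in wild-type 1, 2 and 3. One array of each genotype, p300+/- 3 and wild-type 2, was low to a like extent. The genotypes differed by a log2 fold change of -0.053 ± 0.19 (SE), with a 95% interval of -0.49 to 0.39. This value was 0.080 without p300+/- 3, 0.084 without wild-type 3, -0.21 without wild-type 2 and -0.077 without p300+/- 3 and wild-type 2 together.

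Grik5 encodes the more widely expressed high-affinity subunit. It was at 0.24, -0.56 and -0.12 in the p300+/- arrays and at 0.23, -0.90 and 0.12 in the wild-type arrays. Wild-type 2 was the lowest, p300+/- 2 the next, and the highest array of each genotype was at nearly the same value. The pooled SD within genotypes was 0.525, above that of 95.6% of all probe sets and of 96.8% of those in its level class, from 8 to 16. Its log2 fold change was 0.037 ± 0.33 (SE), with a 95% interval from -0.73 to 0.81, that is 0.602 to 1.75 times the wild-type level. It took the opposite sign, at -0.32, without wild-type 2, and was -0.33 without p300+/- 3 and wild-type 2 together, -0.16 without p300+/- 1, -0.12 after quantile normalization and -0.24 with array weights. It was 0.24 without wild-type 1 or without p300+/- 2.

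Both high-affinity subunits were below 0 in the arrays in which neuronal markers were low. In wild-type 2 the mean of the 8 neuronal markers was -0.62, with Grik4 at -0.35 and Grik5 at -0.90. In p300+/- 3 it was -0.40, with Grik4 at -0.36 and Grik5 at -0.12. The low Grik5 value of p300+/- 2 (-0.56) had no counterpart in the neuronal markers (0.0098) or in Grik4 (0.082). The mean of 7 CA1 pyramidal cell markers was also low in both arrays, at -0.16 in p300+/- 3 and -0.26 in wild-type 2, and between 0.029 and 0.071 in the others. Means of CA3 markers were 0.027 in p300+/- 3 and 0.073 in wild-type 2, and those of dentate granule cell markers were -0.24 and 0.0055. What part these shifts have in the Grik4 and Grik5 values was not tested.

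**Figure D3:**
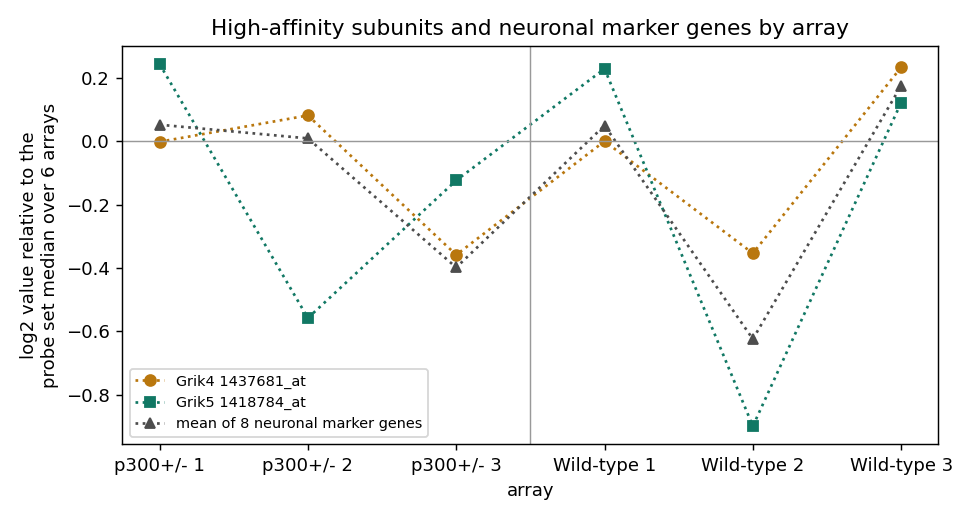
The log2 values of Grik4, of Grik5 and of the mean over 8 neuronal marker genes are plotted by array, relative to the median over 6 arrays, with p300+/- arrays left of the vertical line and dotted lines that only join the points of one series. All 3 are below 0 in p300+/- 3 and in wild-type 2, and Grik5 alone is low in p300+/- 2 (-0.56).

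By gene mean, 4 of the 5 kainate genes were below 0 and 1 above (all 5 below after quantile normalization), with a median log2 fold change of -0.053. Over all 18193 genes the median was 0.019, with 57.6% of genes above 0. No kainate gene mean passed (limma, adjusted p = 0.9998), nor did any gene of the array (0%), and 0.940% of all genes but no kainate gene had an unadjusted p under 0.05. Grik1 (-0.24) was followed by Grik3 (-0.14), Grik4 (-0.053), Grik2 (-0.016) and Grik5 (0.037). The 95% intervals of all neighbours in this order overlapped. The mean of the core subunit genes was -0.14, -0.020 and -0.047 in the p300+/- arrays and 0.061, 0.080 and 0.047 in the wild-type arrays, without overlap. This mean holds the Grik1 difference and was not tested. In the gene means of Grik2 and of Grik3 the genotypes overlapped, and each averages probe sets with fold changes of opposite sign. How often like means of other genes do not overlap was not computed. The mean of both high-affinity genes was 0.12, -0.24 and -0.24 in p300+/- and 0.12, -0.63 and 0.18 in wild-type arrays, with overlap.

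**Figure D4:**
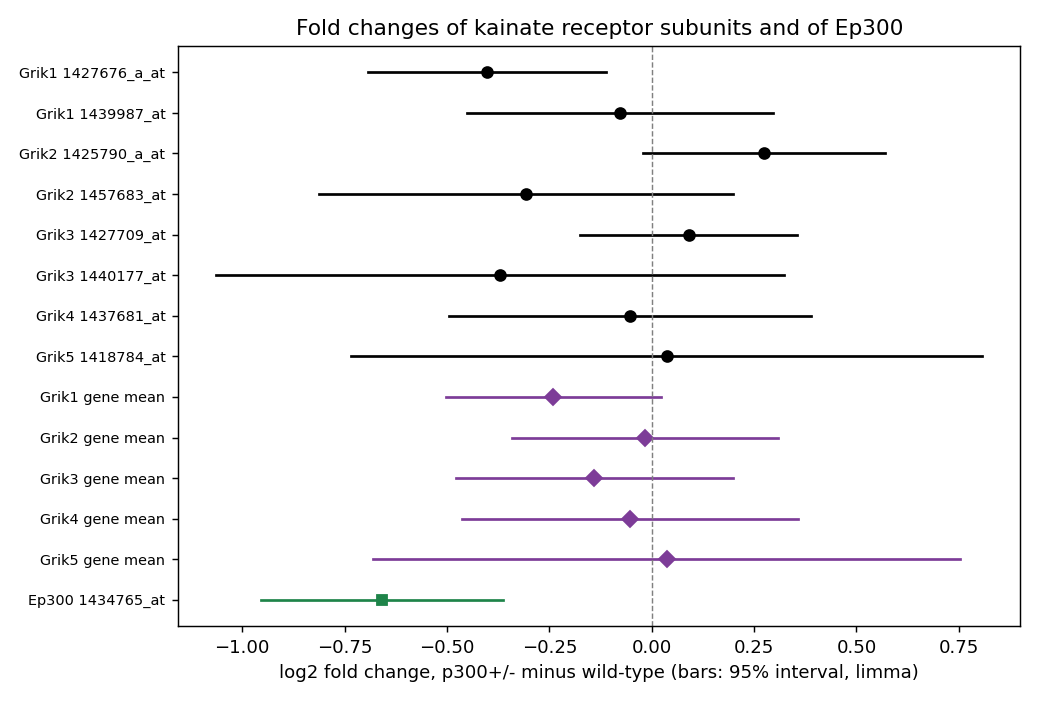
The log2 fold change of p300+/- minus wild-type, with its 95% interval (limma), is plotted for the 8 kainate probe sets (black), the 5 gene means (purple) and Ep300 (green). Of the kainate intervals only that of Grik1 1427676_a_at (-0.69 to -0.11) leaves out 0, and that of Grik5 is the widest.

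Leaving out single arrays showed which differences rested on 1 pool. Both Grik1 1427676_a_at and Grik2 1425790_a_at kept their direction in each of these fits. So did both Grik3 probe sets and Grik2 1457683_at, but the latter and Grik3 1440177_at came close to 0 without wild-type 2 and without p300+/- 1, respectively. Grik1 1439987_at, Grik4 and Grik5 crossed 0.

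**Figure D5:**
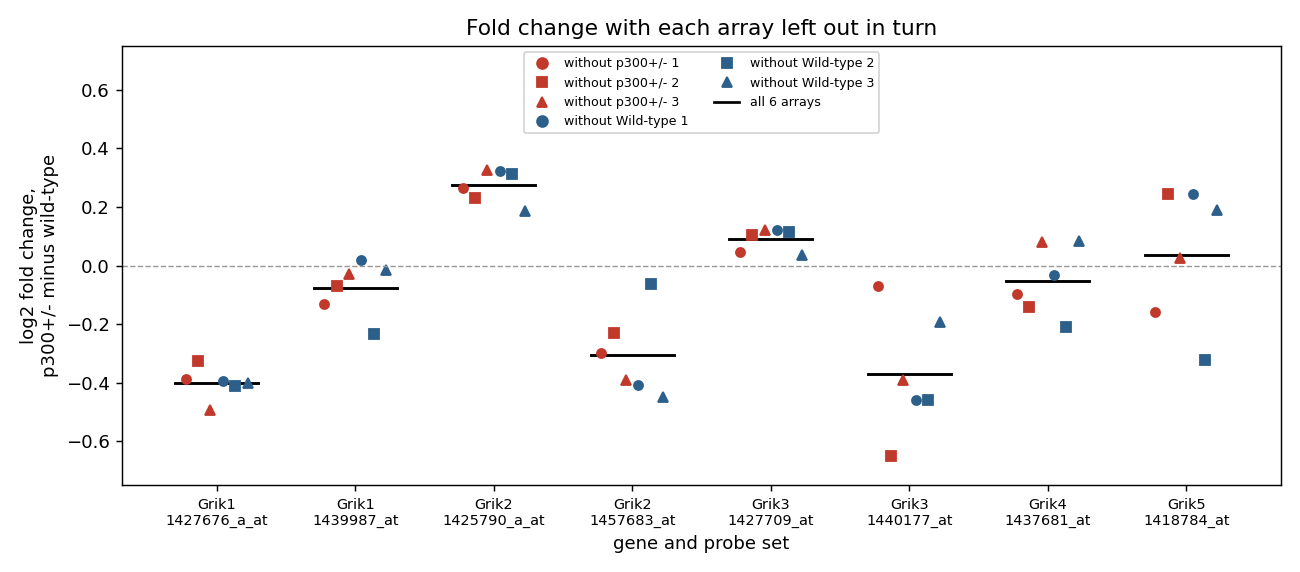
The log2 fold change of each kainate probe set is plotted with all 6 arrays (black bar) and with each array left out in turn (points, red for p300+/- and blue for wild-type arrays). Grik1 1427676_a_at stays between -0.49 and -0.33, whereas points lie on both sides of 0 for Grik1 1439987_at, Grik4 and Grik5.

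Auxiliary subunits of kainate receptors are the Neto proteins, which modulate the gating of the channel. Neto1 was read by 3 probe sets with log2 fold changes of -0.0079, -0.17 and 0.010, and its gene mean was -0.054 ± 0.14 (SE). Its mean was 0.067, 0.14 and -0.34 in the p300+/- arrays and 0.050, -0.093 and 0.074 in the wild-type arrays, with p300+/- 3 the lowest. Without p300+/- 3 the Neto1 mean turned to 0.092, without wild-type 2 it was -0.11, and without both it was 0.040. Neto2 was read by 3 probe sets at -0.046, 0.29 and 0.020, with a gene mean of 0.088 ± 0.12 (SE). Its mean was 0.049, 0.25 and -0.13 in p300+/- and -0.0099, 0.020 and -0.11 in wild-type arrays. It was 0.18 without p300+/- 3 and 0.11 without wild-type 2, but -0.010 without p300+/- 2. Neither gene passed (limma on gene means, adjusted p = 0.9998 for both), and the genotypes overlapped in both.

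A wider list of 35 partners, which covers these auxiliary subunits, mossy fibre organizers, scaffolds, adhesion, turnover, SUMO and RNA editing enzymes, kinases and transporters, had 30 members with a probe set of their own. The other 5 were not analysed here. None passed in either direction, 15 had gene means above 0 and 15 below (57.6% of all genes were above 0), and the median was 0.0044, beside 0.019 over all genes. Grip1, a PDZ scaffold that binds glutamate receptor tails, had the smallest p of the list. By gene mean it was the only 1 of the 30 with an unadjusted p under 0.05 (limma), beside 0.940% of all genes, and the only 1 in which the genotypes did not overlap, beside 4.72% of all genes. Its gene mean was at -0.18, -0.21 and -0.44 in the p300+/- arrays and at 0.17, -0.16 and 0.22 in the wild-type arrays. The nearest pair, p300+/- 1 and wild-type 2, was 0.014 apart. Its log2 fold change was -0.35 ± 0.14 (SE), with a 95% interval of -0.67 to -0.032 (limma on gene means, adjusted p = 0.9998). Both of its probe sets were below 0, at -0.27 with overlap of the genotypes and at -0.43 without. Read by single probe sets, 5 of the 75 of the list did not overlap, beside 5.39% of all probe sets, and 4 had an unadjusted p under 0.05 (limma), beside 1.22%. Chosen after their values were seen, the 5 were those of Grip1, Snap25 (-0.35), Adarb2 (0.30), Pias3 (0.31) and Dlg4 (0.15), of which that of Dlg4 was not under 0.05. None passed (limma, adjusted p over all probe sets).

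Other roles in the list gave smaller or less certain differences, and the member with the smallest p of each is named. C1ql3, a secreted C1q-like protein that organizes kainate receptors at mossy fibre synapses, was at 0.16 ± 0.17 (SE). Its probe sets differed in sign, at 0.34, 0.26 and -0.13, and its gene mean was 0.045 without p300+/- 2 and 0.033 without wild-type 3. Slc17a6, a vesicular glutamate transporter abundant in the thalamus, was at 0.24 ± 0.21 (SE), or 0.089 without p300+/- 2 and 0.50 without p300+/- 1. Its paralogue Slc17a7 was at -1.37 in wild-type 2 and between -0.49 and 0.34 elsewhere. The log2 fold change of Slc17a7 was 0.19 and turned to -0.33 without wild-type 2. Cdh2, an adhesion molecule of synapses, was at -0.15 ± 0.13 (SE). The SNARE gene Snap25 was at -0.15 ± 0.11 (probe sets at 0.046 and -0.35), the SUMO protease gene Senp1 at 0.13 ± 0.11, and the kinase gene Prkca at 0.12 ± 0.16 (SE), or -0.0079 without p300+/- 2. The ADAR family, whose enzymes edit glutamate receptor transcripts, had gene means of 0.085 for Adar, 0.019 for Adarb1 and -0.025 for Adarb2. Without wild-type 2 these were -0.21, -0.22 and -0.17, and without p300+/- 3 they were 0.34, 0.12 and 0.096. Adarb2 was read by 3 probe sets that differed, at 0.30, -0.0095 and -0.36. Of the other ionotropic glutamate receptor genes, of the AMPA, NMDA and delta families, 3 of 11 measured were above 0 and 8 below, with a median of -0.045 and none past the test.

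The genes whose values over the 6 arrays lay nearest to those of each kainate gene are given as a description, by the root mean square difference between reference probe sets among 18192 other genes. With so few arrays and so many genes, close matches to any pattern are found. For Grik1 (1427676_a_at) these were the zinc finger gene Zfp263 (0.085) and Mageb16 (0.091), against a median distance of 0.30. For Grik2 (1457683_at) they were Srp54b (0.060) and Xkr4 (0.063), both high in wild-type 2, at 0.77 and 0.58. For Grik3 (1440177_at) they were the transcription factor gene Klf12 (0.12) and Appbp2 (0.14). Grik4 was nearest to the splicing factor gene Sf1 (0.036) and to Bace1 (0.036), the gene of the beta-secretase, both low in p300+/- 3 and wild-type 2. Grik5 was nearest to the transcription factor gene Nfic (0.085) and to Purb (0.11), at -0.81 and -1.06 in wild-type 2.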

How the data were processed

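Per the labels' protocols, Trizol-extracted and column-cleaned RNA was hybridized and the arrays were normalized with GeneSpring GX, with no version, probe summarization or method of normalization named. The deposited log2 values had a median of 0 in each probe set, within 5e-07, so they hold differences and no levels. The base 2 was inferred from binary rounding grids, which also gave the level classes. This assignment was tested on simulated levels. Another base would change the size of a fold change but not its direction.

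After 64 control probe sets were left out, 34945 of 45037 probe sets had a single gene symbol by the platform annotation, 932 several and 9160 none. Current symbols came from RefSeq's GRCm38.p6 gene table, matched on gene identifier for 34741 of them. The files name no build, so no coordinates are printed.

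Genotypes were compared two-sidedly by lmFit and eBayes of limma 3.58.1 (R 4.3.3) with p-values adjusted by Benjamini-Hochberg, across 45037 probe sets and across 18193 means of all probe sets of a gene. The median SE of a log2 fold change was 0.15. The number of arrays limits the precision, and an exact permutation test of 3 against 3 cannot go below 0.1. The fit was tested on simulated data. The named genes were all kainate probe sets, Ep300, Neto1, Neto2, the smallest p of each partner role and the 2 nearest patterns per gene. Slc17a7, Adarb1, Adarb2 and the partner probe sets without overlap were added after their values were seen. A reference probe set is the one in the highest level class, then the first in the file. The members and lists were chosen with earlier results of these data known. No filter on dim probe sets was used. Alternatives were quantile normalization, median centring, trend and robust moderation, array weights, a replicate block, level classes of 4 and above, omission of probe sets ending in _s_at or _x_at, the reference probe set, a threshold of 0.1 and omission of each array. The omission of p300+/- 3 and wild-type 2 together was chosen after seeing the data. Figures were drawn with matplotlib 3.10.9.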

Additional observations from a re-analysis of the deposited data

How the results depend on the processing

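Counts of probe sets and of genes past the threshold were 0 under every alternative run, a threshold of 0.1 included, while probe sets at an unadjusted p under 0.05 numbered from 412 (level classes of 4 and above, with fewer tested) to 1632 (array weights, limma). No kainate value passed in any of them. Grik1 1427676_a_at, Grik2 1425790_a_at and 1457683_at, both Grik3 probe sets and the Grik1 and Grik3 gene means kept their direction throughout. With each array left out in turn, the ranges were -0.49 to -0.33 for Grik1 1427676_a_at, -0.23 to 0.020 for 1439987_at, 0.19 to 0.32 for Grik2 1425790_a_at, -0.45 to -0.064 for 1457683_at, 0.036 to 0.12 for Grik3 1427709_at, -0.65 to -0.069 for 1440177_at, -0.21 to 0.084 for Grik4 and -0.32 to 0.24 for Grik5. For gene means they were -0.32 to -0.19 (Grik1), -0.13 to 0.12 (Grik2) and -0.27 to -0.011 (Grik3).

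The values that took the opposite sign in other settings were these. Grik5 was at -0.12 after quantile normalization, at -0.24 with array weights (-0.22 in the fit of gene means) and at -0.33 without p300+/- 3 and wild-type 2 together. The Grik2 gene mean was at 0.041 with array weights and at 0.11 without both of these arrays. With the reference probe set in place of the gene mean, Grik2 was at -0.31, Grik3 at -0.37 and Grik1 at -0.40. The median of the partner list ran from -0.094 without wild-type 2 to 0.11 without p300+/- 3, beside 0.0044 with all arrays. The cause of these shifts was not tested.

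Nothing in the labels says that a replicate number marks a shared litter or day. Deviations from the genotype means correlated at 0.61, -0.23 and -0.47 for the pairs with numbers 1, 2 and 3, and at 0.65 between p300+/- 3 and wild-type 2. With so few arrays, these correlations cannot decide whether the numbers pair the arrays. As each number has 1 array of each genotype, a replicate block cannot change a fold change, only its SE and p. With the block the count stayed at 0. Grik1 1427676_a_at, at -0.40, had an unadjusted p of 0.027 with the block and 0.013 without it (limma, adjusted p = 0.9999 in both).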
